A study of Mus musculus with 7 samples.

Results

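The assays for miR-99, miR-100 and miR-125 were described in wound edge skin of C57Bl6 mice, where the plate carried 5 assays of this family among 306 miRNA assays. The members were every assay whose name, without its species prefix, case and leading zeros, began with miR-99, miR-100 or miR-125, and they were miR-99a, miR-99b, miR-100, miR-125a and miR-125b. The rule used names alone and no measured value, though the family was chosen with earlier results of these data known. The series compared ischemic wounds, made in a bipedicle skin flap, with non-ischemic wounds, and all wound edges were taken 3 days after wounding. There were 4 non-ischemic samples, called controls in the labels, and 3 ischemic samples, and no other agent or genotype was named for either group. A bipedicle flap is a strip of skin cut free along its sides, which leaves the middle with little blood. The labels do not say whether samples came from separate animals or from pools, so the p-values rest on the spread among these 7 samples, some of which may be technical.

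The family is among the most conserved groups of animal miRNAs. miRNAs are short RNAs that guide Argonaute proteins to messenger RNAs, mainly through the seed near their 5′ end. miR-99a, miR-99b and miR-100 share a seed and are known to restrain mTOR and AKT signalling, including in keratinocytes of healing skin. miR-125a and miR-125b are the vertebrate counterparts of lin-4, a timing miRNA of Caenorhabditis elegans. In mouse skin, miR-125b is known to hold hair follicle stem cells back from differentiation.

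The mature sequences show how close the members are to each other and which bases their assays had to tell apart. They are the 5p forms of the mouse RefSeq annotation (build GRCm38.p6), written 5′ to 3′ with the seed, bases 2 to 8, in capitals. The assay names carry no arm, and 4 of the 5 carry a human prefix, with miR-99a as the exception.
miR-99a: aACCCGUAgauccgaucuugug
miR-100: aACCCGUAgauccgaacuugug
miR-99b: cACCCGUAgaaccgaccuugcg
miR-125a: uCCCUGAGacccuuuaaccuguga
miR-125b: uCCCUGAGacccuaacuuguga
let-7c: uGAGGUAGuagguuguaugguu
let-7e: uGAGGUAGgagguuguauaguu
Counted from 1 at the 5′ end of miR-99a, miR-100 differs from miR-99a at 1 position (U16A), and miR-99b differs from miR-99a at 4 positions (A1C, U11A, U16C and U21C). miR-125a is 24 bases long and miR-125b 22 bases long, and they share their first 13 bases. let-7c and let-7e are shown because they are encoded beside members of the family. Whether the assay of a member also reads a close relative was not tested.

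In the mouse genome the family lies in 3 clusters, each with a let-7 gene between a miR-99 type and a miR-125 type gene. On chromosome 16, the miR-99a hairpin (chr16:77598936-77599000) is followed after 656 bases by let-7c-1 and after a further 46522 bases by miR-125b-2, and no gene of the annotation spans them. On chromosome 9, miR-100 (chr9:41531425-41531504), let-7a-2 and miR-125b-1 lie over 50578 bases, all inside the long non-coding RNA gene Mir100hg. On chromosome 17, miR-99b (chr17:17830188-17830257), let-7e and miR-125a lie within 692 bases inside the protein-coding gene Spaca6. Mature miR-125b is identical from both of its genes, so its assay read the sum of the chromosome 9 and chromosome 16 copies.

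Across the plate, 91 to 106 miRNAs per sample had a threshold cycle (Ct) below 35, the limit used here for detection, where a lower Ct means more product. All comparisons were made on log2 levels relative to 5S rRNA, obtained by subtracting each assay's Ct from the 5S rRNA Ct, so that 1 unit is 1 cycle and higher is more. Ischemic sample 3 stood apart, with a correlation of 0.756 to 0.830 with each of the other samples across the 76 miRNAs detected in all 7 samples. Its 3 leukocyte miRNAs (miR-223, miR-142-3p and miR-142-5p) averaged -4.36 log2 units from the non-ischemic mean, against -0.73 to 0.72 in non-ischemic samples and 0.25 and 0.38 in ischemic samples 1 and 2. Results on the members that this sample turns or moves by over 1.5 times are also given without it. In skin as a whole tissue, fewer cells of a type and less RNA per cell cannot be told apart. All 5 keratinocyte, all 4 skeletal muscle and the endothelial miRNA on the marker lists were among the 103 miRNAs tested, which had a Ct below 35 in at least 3 samples.

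miR-125b, miR-125a and miR-99a were detected in all 7 samples at similar Ct, while miR-100 and miR-99b lay near or beyond the detection limit. The Ct of miR-125b was 30.59, 31.18, 30.55 and 30.41 in non-ischemic samples 1 to 4 and 31.12, 30.61 and 30.13 in ischemic samples 1 to 3. Its groups overlapped, and both the highest level and the second lowest stood among ischemic samples. Its mean Ct over the 7 samples was 30.7 ± 0.38 (SD), the 29th lowest of the 306 miRNAs.

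The Ct of miR-125a was 31.16, 31.46, 30.70 and 30.98 in non-ischemic samples 1 to 4 and 31.28, 30.84 and 30.66 in ischemic samples 1 to 3. Its ischemic samples lay inside or at the edge of the non-ischemic range, with the lowest level in non-ischemic sample 2 as for miR-125b. Its mean Ct was 31.0 ± 0.30 (SD, n = 7), which ranked 37th.

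The Ct of miR-99a was 30.93, 31.17, 31.14 and 30.62 in non-ischemic samples 1 to 4 and 32.03, 32.18 and 30.49 in ischemic samples 1 to 3. Ischemic samples 1 and 2 had later Ct than every non-ischemic sample, and ischemic sample 3 had the earliest Ct of all. Its mean Ct was 31.2 ± 0.65 (SD, n = 7), which ranked 39th.

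The Ct of miR-100 was 35.61, 35.77, 36.12 and 34.68 in non-ischemic samples 1 to 4 and 35.57, 35.78 and 34.43 in ischemic samples 1 to 3. It was below 35 in 1 sample of each group, non-ischemic sample 4 and ischemic sample 3. These were also the samples with the earliest Ct of miR-99a, whose sequence differs from miR-100 by the 1 base above. The same samples had the earliest Ct of miR-125b, which has another seed, so this order was not particular to miR-99a.

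The Ct of miR-99b was 34.62, 35.48, 35.57 and 35.69 in non-ischemic samples 1 to 4 and 35.99, 35.64 and 36.03 in ischemic samples 1 to 3. It was below 35 in non-ischemic sample 1 only. With such late Ct, miR-100 and miR-99b did not meet the criterion for testing.

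**Figure D1:**
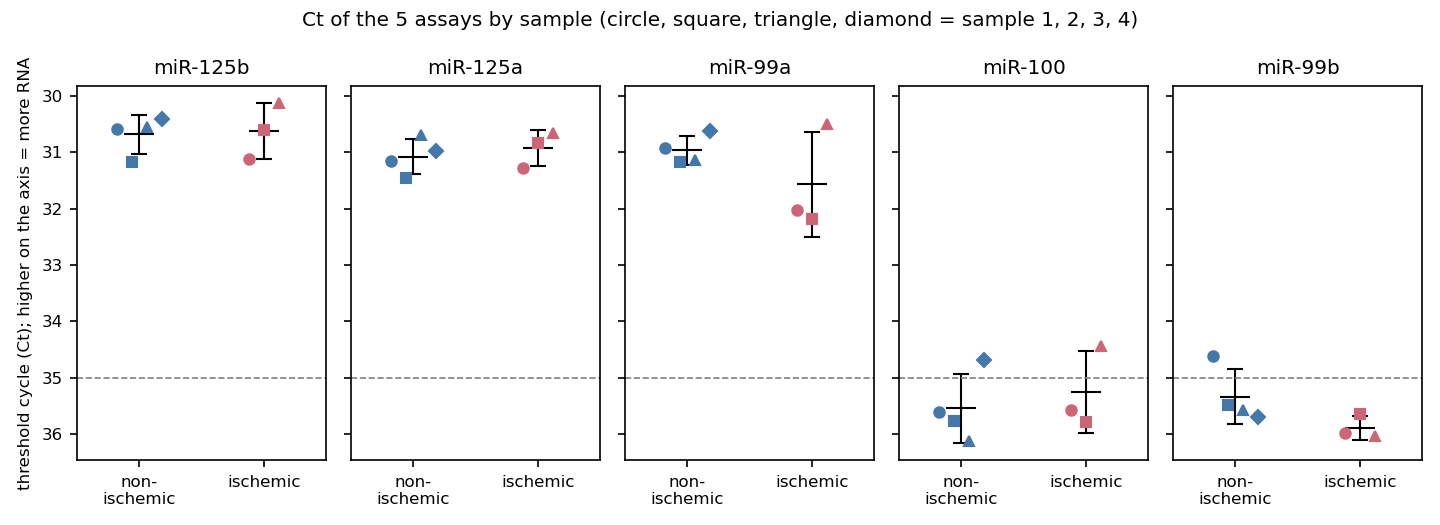
Ct of the 5 assays in each sample, on a reversed axis so that more RNA is higher, with non-ischemic samples in blue and ischemic samples in red. Black bars are the mean ± SD of a group (n = 4 and 3), the dashed line is the detection limit of Ct 35, and the miR-99a values of ischemic samples 1 and 2 lie below all other samples of that assay.

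The order of the members was similar in all samples. miR-125b had the highest log2 level of the family in 6 of 7 samples and miR-99a in the remaining sample, non-ischemic sample 2. The 3 detected members held the highest 3 places in 7 of 7 samples. miR-99a came up 4.20 ± 0.56 cycles (SD, n = 7) before miR-100, and miR-125a came up 4.56 ± 0.63 cycles before miR-99b, its neighbour on chromosome 17. The neighbours in that order, miR-125b and miR-125a, differed by 0.15 to 0.58 log2 units within a sample, and miR-99a changed places with miR-125a between samples. The efficiency of each assay is unknown, so these gaps compare Ct and not molecules.

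Between ischemic and non-ischemic wound edges, miR-99a had a lower mean in ischemic samples, and miR-125a and miR-125b had nearly equal means. None of the 3 tested members passed an adjusted p of 0.05 in limma, where 0 of the 103 tested miRNAs passed (0%). At an unadjusted p under 0.05, 0 of the 3 members and 19 of the 103 miRNAs (18.4%) were counted, and an unmoderated test per assay also called 0 of the 3. The groups did not overlap for 0 of the 3 members, against 17.5% of tested miRNAs. The median difference of all 103 miRNAs was -0.35 log2 units, with 79 lower and 24 higher in ischemic samples (76.7% lower). On raw Ct 69 of 103 were lower, against snoRNA 85, and 58 when ischemic sample 3 was left out of the main comparison. Centring on the global mean, on the global median or by quantiles holds this split near even by construction, and gave 53, 51 and 49 lower.

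The level of miR-99a deviated from its non-ischemic mean by -1.15, -1.40 and 0.38 log2 units in ischemic samples 1 to 3, and by 0.05, -0.38, -0.19 and 0.53 in non-ischemic samples 1 to 4. Ischemic samples 1 and 2 thus lay below all non-ischemic samples and ischemic sample 3 within their range. The difference in means was -0.72 ± 0.50 log2 units (SE, 95% interval -1.86 to 0.42), or 1.65-fold lower, with an adjusted p of 0.512 in limma (n = 4 and 3). Relative to the median of all tested miRNAs it was -0.37, but this value rested on single ischemic samples, at -0.095 without sample 1, 0.12 without sample 2 and -1.13 without sample 3. Without ischemic sample 3 the difference was -1.27 ± 0.38 (2.42-fold lower), with an unadjusted p of 0.00877 and an adjusted p of 0.0822 in limma. In that comparison 20.4% of the 103 miRNAs had an unadjusted p under 0.05 and 8 (7.77%) passed the adjustment. Without ischemic sample 2 the difference shrank to -0.38 ± 0.56.

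This order of samples was shared by other miRNAs. In 28 of the 103 tested miRNAs (27.2%), ischemic samples 1 and 2 both lay below all non-ischemic samples, and in 15 of these (14.6% of the 103) ischemic sample 3 did not. The 15 included miR-99a and its cluster partner let-7c. In ischemic sample 3, let-7c lay just inside the non-ischemic range, at a level of -17.54 against a lowest non-ischemic level of -17.62. There it deviated by -0.38 log2 units from its non-ischemic mean, whereas miR-99a deviated by 0.38. Marker miRNAs also varied between samples. Of the marker lists, the keratinocyte miRNAs alone averaged with ischemic samples 1 and 2, but not 3, below all non-ischemic samples. Of the 5 keratinocyte miRNAs, however, only miR-203 was itself among the 15. The leukocyte miRNAs given above were low in ischemic sample 3 alone. The 5 keratinocyte miRNAs (miR-200b, miR-200c, miR-429, miR-203 and miR-205) averaged -1.03, -1.17 and -0.37 log2 units in ischemic samples 1 to 3, as deviations from the mean of the controls, against -0.61 to 0.63 in non-ischemic samples. The 4 skeletal muscle miRNAs (miR-1, miR-133a, miR-133b and miR-206) averaged 0.21, 1.11 and 1.96 in the ischemic samples, against -0.20 to 0.26. Of the 4 fibroblast and smooth muscle miRNAs, miR-199a and miR-143 were not tested. The others, miR-214 and miR-145, averaged -1.36, -0.29 and -0.70, against -0.20 to 0.34. These averages and those of the keratinocyte miRNAs mix unlike members. The difference in means was -1.53 for miR-214 and -0.04 for miR-145. Among the keratinocyte miRNAs it ran from -1.98 (miR-200b) to -0.05 (miR-205). The endothelial miR-126 was at -0.91, -0.08 and -0.37, against -0.38 to 0.22. The other arm of its hairpin, miR-126*, was left off the list, with a difference in means of -0.06 beside -0.46 for miR-126. The erythroid miR-451 and miR-486 averaged 2.97, 2.23 and 2.58, against -1.31 to 1.08. No marker on these lists was without product in all samples, and the part of these cell types in the miR-99a values was not tested.

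miR-125a and miR-125b showed no difference beyond their error. The level of miR-125b deviated by -0.51, -0.12 and 0.46 log2 units in ischemic samples 1 to 3, and its difference in means was -0.06 ± 0.42 (SE, 95% interval -1.01 to 0.89, adjusted p = 0.947 in limma). The level of miR-125a deviated by -0.28, 0.05 and 0.33, and its difference was 0.03 ± 0.38 (-0.83 to 0.89, adjusted p = 0.957 in limma). Both intervals reach 0.89 log2 units upward, so they leave room for a difference of that size. Relative to the median of all tested miRNAs they were at 0.38 for miR-125a and 0.295 for miR-125b with all samples, but at 0.025 and -0.175 without ischemic sample 3. The sign of their differences also turned with the normalization. The difference of miR-125a was 0.39 and that of miR-125b 0.30 after global median normalization, while against snoRNA they were -0.13 and -0.21. Without ischemic sample 3, miR-125a was at -0.12 ± 0.39 and miR-125b at -0.32 ± 0.41.

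**Figure D2:**
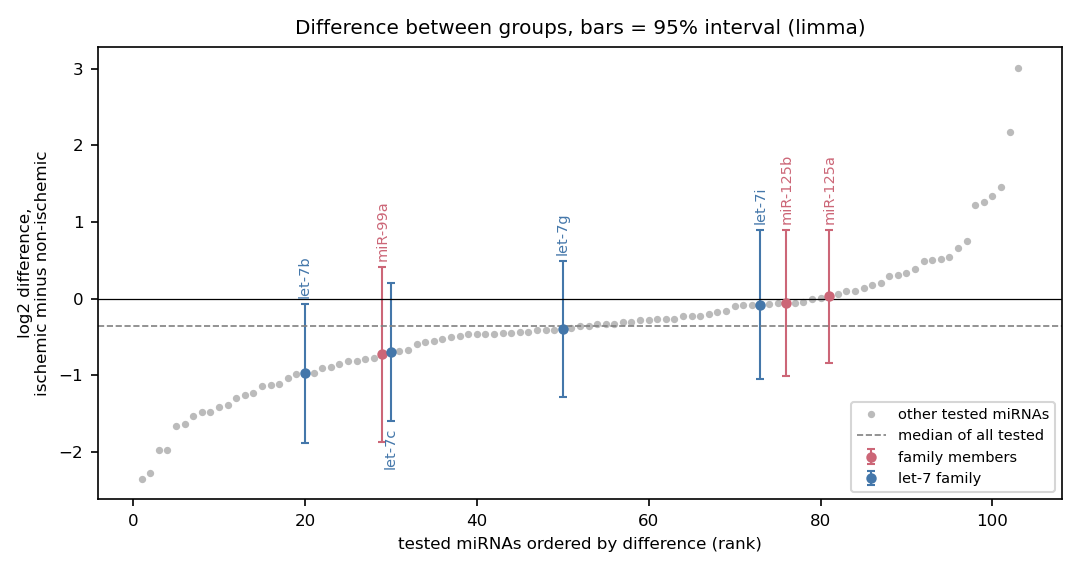
Log2 difference between ischemic and non-ischemic means of the 103 tested miRNAs in increasing order, with the family in red, let-7 members in blue and 95% intervals as bars. miR-99a at -0.72 lies left of the median of -0.35 (dashed line), and miR-125b and miR-125a lie right of it near 0.

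In ischemic sample 3, the 3 detected members were closer to their non-ischemic means than most tested miRNAs on the scale of 5S rRNA. The median absolute deviation of the tested miRNAs from their non-ischemic mean was 1.0 log2 units there, against 0.53 and 0.50 in ischemic samples 1 and 2. The farthest of the 3 members, miR-125b, deviated by 0.46, and 71 of the 103 tested miRNAs lay farther from their non-ischemic mean. There the tested miRNAs had a median deviation of -0.53, and 81, 84 and 82 of the 103 had a lower deviation than miR-125a, miR-125b and miR-99a, so relative to the other miRNAs the members were high there. In ischemic sample 2, by contrast, 12 of the 103 lay farther than miR-99a, while 93 lay farther than miR-125b and 100 farther than miR-125a.

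**Figure D3:**
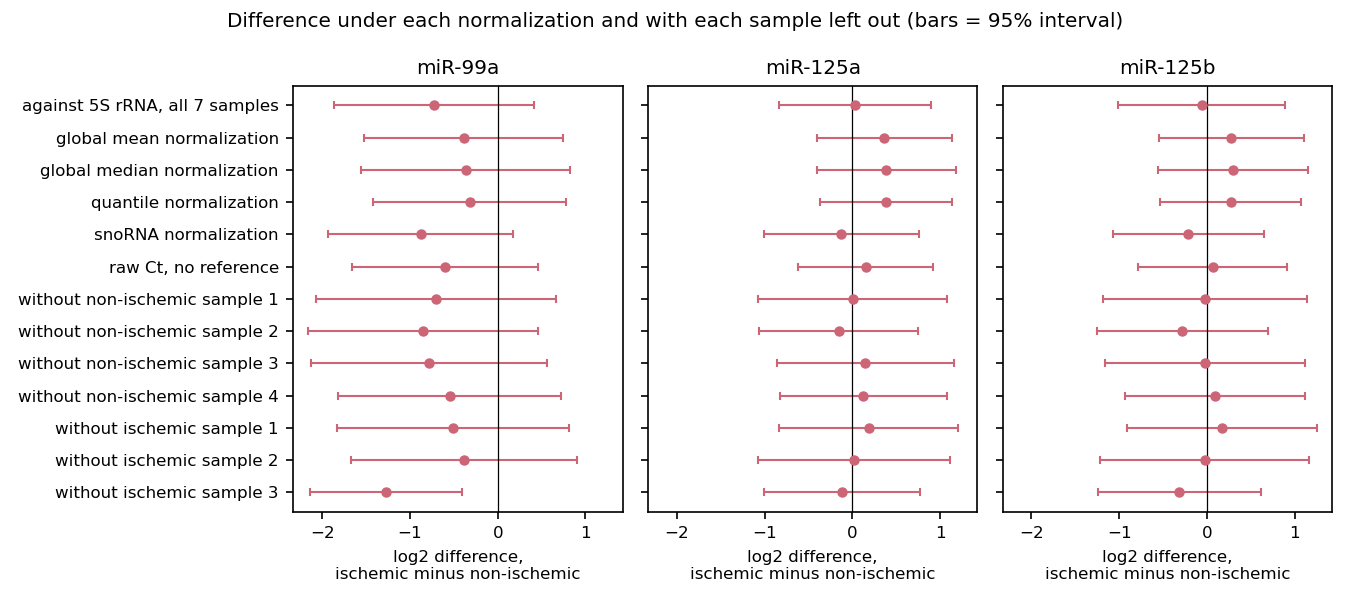
Log2 difference of miR-99a, miR-125a and miR-125b under each normalization and with each sample left out in turn, with 95% intervals. The difference of miR-99a stays below 0 throughout, from -1.27 to -0.32, whereas those of miR-125a and miR-125b lie on either side of 0. The 95% interval of miR-99a nevertheless includes 0 in all of these settings except the lowest, at -1.27.

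For the late members, the fit over all 306 miRNAs without a filter gave a difference of -0.67 ± 0.29 (SE) for miR-99b and of 0.16 ± 0.52 for miR-100, with adjusted p of 0.539 and 0.873 in limma. There 0 of 306 miRNAs passed the adjustment (0%), and neither late member was among the 22 (7.19%) with an unadjusted p under 0.05. All 3 ischemic levels of miR-99b lay below all 4 non-ischemic levels (exact permutation p = 0.0571). Groups that do not overlap were found for 24 of 306 miRNA assays (7.84%), and for 3 of 23 assays (13%) with a mean Ct between 35 and 37. Only non-ischemic sample 1 of miR-99b was below a Ct of 35, so its lower level rests on values beyond the detection limit. In miR-100 the groups overlapped (exact permutation p = 0.714), and its difference turned to -0.27 ± 0.50 without ischemic sample 3. That of miR-99b was -0.61 ± 0.35 without it.

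Differences between members within a sample do not depend on the reference RNA, and 5 pairs were compared by exact permutation over the 35 splits of 4 and 3 samples. Levels of miR-125a minus miR-125b were -0.58, -0.28, -0.15 and -0.57 log2 units in non-ischemic samples 1 to 4 and -0.16, -0.22 and -0.53 in ischemic samples 1 to 3. The groups overlapped fully, and the difference between them was 0.089 (exact p = 0.629), or 0.20 without ischemic sample 3 (exact p = 0.267). The SD of this pair over the 7 samples was 0.19, and 9 of the 5253 pairs of tested miRNAs had a smaller SD, with a median over all pairs of 0.99. miR-125a and miR-125b, which share a seed and come from different chromosomes, thus had nearly parallel levels.

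Levels of miR-99a minus miR-125b were -0.34, 0.01, -0.59 and -0.21 in non-ischemic samples 1 to 4 and -0.92, -1.56 and -0.37 in ischemic samples 1 to 3. Ischemic samples 1 and 2 lay below the non-ischemic range and ischemic sample 3 inside it. The mean was lower by 0.67 log2 units in ischemic samples, a difference that did not pass the test (exact p = 0.0857, and 0.410 when adjusted over all 5253 pairs). miR-99a minus miR-125a was 0.23, 0.29, -0.44 and 0.36 in non-ischemic samples and -0.75, -1.34 and 0.16 in ischemic samples, with the same order of ischemic samples. Its difference was -0.75 (exact p = 0.171), and -1.16 without ischemic sample 3 (exact p = 0.0667) or -0.41 without ischemic sample 2. For miR-99a minus miR-125b it was -0.96 without ischemic sample 3 (exact p = 0.0667) and -0.36 without ischemic sample 2. Without an ischemic sample, 0.0667 is the smallest p that 15 splits can give. How many of the 5253 pairs reach it there was not counted.

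Levels of miR-99a minus let-7c, its neighbour on chromosome 16, were 0.77, 0.92, 0.95 and 0.73 in non-ischemic samples 1 to 4 and 0.40, 0.45 and 1.60 in ischemic samples 1 to 3. The 3 ischemic samples lay on both sides of the non-ischemic range, and the difference in means was -0.028 (exact p = 0.971). It rested on ischemic sample 3, without which it was -0.42 (exact p = 0.0667), and it was 0.18 without ischemic sample 1 and 0.16 without ischemic sample 2. miR-125b minus let-7c was 1.11, 0.91, 1.54 and 0.94 in non-ischemic samples and 1.31, 2.01 and 1.97 in ischemic samples, a mean higher by 0.64 (exact p = 0.0857). Groups did not overlap in 0 of the 5 pairs, against 15.4% of all 5253 pairs, and the smallest p that 35 splits can give is 0.0286.

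**Figure D4:**
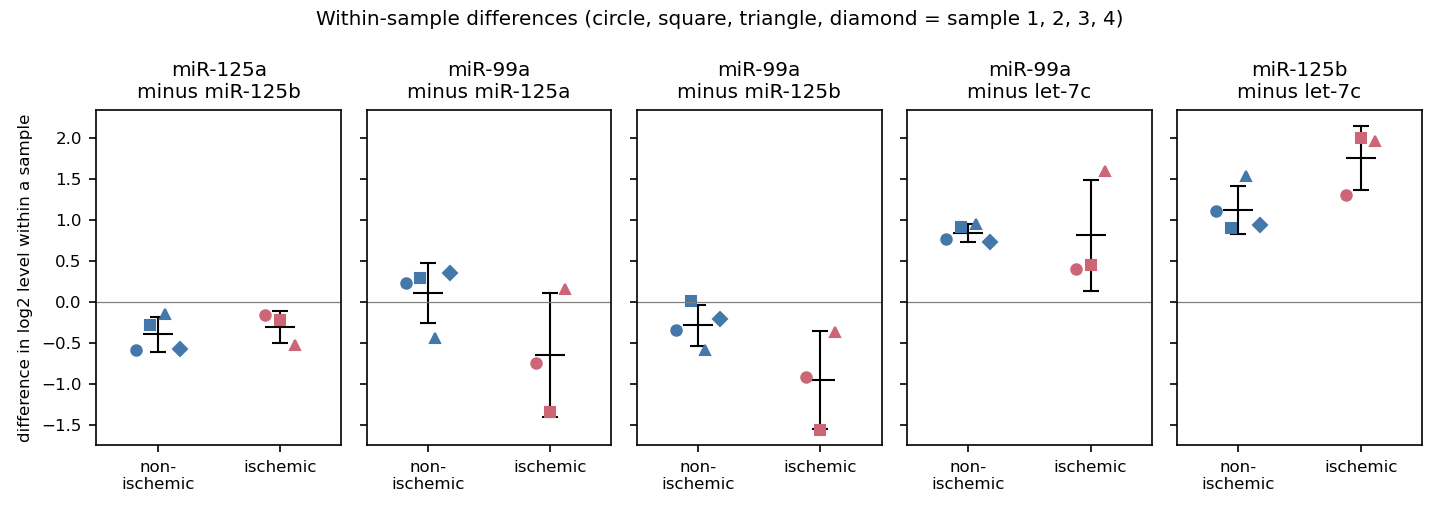
Difference in log2 level between 2 miRNAs of the same sample, for 5 pairs, with the mean ± SD of each group in black (n = 4 and 3). miR-125a minus miR-125b varies least over the 7 samples, and ischemic samples 1 and 2 are lowest in each difference that starts from miR-99a.

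The let-7 family, known for holding cells in a differentiated state, supplies the middle gene of each cluster. Of its 9 listed members, 7 were on the plate and 4 were tested, and let-7a was not analysed here. 0 of the 4 passed an adjusted p of 0.05 in limma. let-7b had the largest difference, at -0.98 ± 0.40 (SE, adjusted p = 0.220), with ischemic Ct of 30.96, 31.51 and 30.60 all later than the non-ischemic range of 29.89 to 30.38. let-7c was at -0.70 ± 0.40, with Ct of 31.70, 32.09, 32.09 and 31.35 in non-ischemic and 32.43, 32.62 and 32.10 in ischemic samples. let-7g was at -0.40 ± 0.39 and let-7i at -0.08 ± 0.43. The median of the 4 was -0.55 beside -0.35 for all tested miRNAs, and 4 of 4 were lower, but 2 of 4 after quantile and 3 of 4 after global mean normalization. let-7e, which lies between miR-99b and miR-125a, gave no product in any sample, and let-7d and miR-98 were later than Ct 35 in all of them.

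By the root mean square distance between mean-centred log2 levels over the 7 samples, the miRNA most like miR-125a was miR-125b, and the reverse also held (0.18, against a median distance of 0.69 and 0.74 to the 102 other tested miRNAs). For a pair, this distance restates the SD of the within-sample difference over the 7 samples on another scale, so it is not a separate measure. miR-125a came next closest to miR-30b (0.23) and miR-24 (0.24), and miR-125b to miR-30b (0.245) and miR-30c (0.249). miR-99a was closest to miR-103 (0.26), miR-365 (0.31) and let-7b (0.35), with its cluster partner let-7c in place 4 of 102. miR-125b stood in place 14 and miR-125a in place 26 from miR-99a. In ischemic samples 1 to 3, miR-103 deviated by -1.05, -0.91 and 0.17 log2 units from the non-ischemic mean, the order also seen in miR-99a. miR-365 deviated by -0.58, -0.88 and 0.61, and let-7b by -0.87, -1.53 and -0.53.

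**Figure D5:**
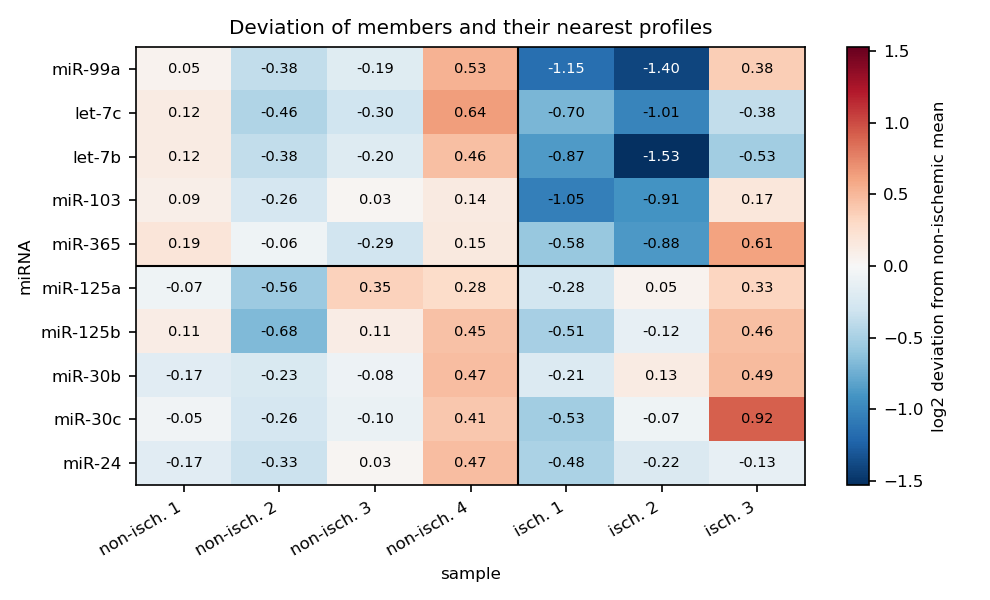
Log2 deviation from the non-ischemic mean of the 3 detected members, let-7c and the miRNAs nearest to each member, in every sample (red above, blue below that mean). miR-99a and its nearest profiles are low in ischemic samples 1 and 2, while miR-125a and miR-125b and theirs lie between -0.68 and 0.92.

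On the linear scale, the authors' deposited table gives a fold of ischemic over non-ischemic of 0.690 for miR-99a, 0.961 for miR-125b and 1.01 for miR-125a. For the late assays the authors' deposited table gives 0.603 for miR-99b and 1.11 for miR-100. These are ratios of arithmetic means of the level relative to 5S rRNA, which give more weight to the highest sample than the log2 means do.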

How the data were processed

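RNA was extracted with a miRVana kit, 500 ng entered reverse transcription with pooled looped primers, and PCR plates had 384 wells, per the labels. Ct software, not given in the sources used here, set the raw values. The authors deposited raw Ct per assay (40 where no product was seen), delta Ct values, their linear ratio to 5S rRNA, and a table of group means and folds. The deposited delta Ct, a log2 value, matched 5S rRNA Ct minus assay Ct for 315 of 316 assays within 0.0001 cycles, so its sign already ran upward with level and was kept. The deposited ratio equals 2 to the power of it. In the raw table, 7 columns repeat the 5S rRNA Ct and were not used. Numbered columns were matched to sample titles through the header row of the delta Ct table.

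The comparison of groups used limma (version 3.58.1, R 4.3.3, moderated and two-sided, with Benjamini-Hochberg adjustment) on 103 miRNAs that had at least 3 samples under Ct 35. Within-sample differences were compared by exact two-sided permutation. Their p is unadjusted, or adjusted over all 5253 pairs of tested miRNAs in place of the planned adjustment over the 5 pairs. A PCR level has no count behind it, so the spread between samples alone gives the precision. The members, the let-7 list, the marker lists and the rule for named miRNAs (all members, the let-7 family, the markers, and the 3 nearest profiles of each tested member) were chosen with earlier results of these data known. The fit was tested on simulated data. Alternatives were other normalizations, filters, treatments of late Ct and variance models, each sample left out, and the replicate number as a block. Sequences and coordinates come from RefSeq tables of GRCm38.p6, in which all 5 members were found.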

Additional observations from a re-analysis of the deposited data

Results flagged for a closer look

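Among the 4 non-ischemic samples, the 9 levels of members and tested let-7 miRNAs and the 5 within-sample differences were searched for a far sample, by the ratio of the gap beside the farthest sample to the whole range, set against Dixon's 95% critical value. Chance passes that value in about 1 of 20 groups, and 2 of 14 passed. In miR-99b, non-ischemic sample 1 lay apart (ratio 0.853), with a level of -19.96 log2 units relative to 5S rRNA against -21.01 to -20.86 in the other non-ischemic samples. In miR-99a minus miR-125a, non-ischemic sample 3 lay apart (ratio 0.843), at -0.44 log2 units against 0.23 to 0.36 in the other non-ischemic samples.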

How the results depend on the processing

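The lower mean of miR-99a kept its direction under all 20 alternatives, but not all of them could turn it. With 7 samples, the filters, the treatment of late Ct and the variance models left its difference at -0.72. The block repeated the value without non-ischemic sample 4 (-0.55), and dropping the filter repeated the value without ischemic sample 3 (-1.27). Adjusted p of miR-99a ran from 0.0610 to 0.899 in limma and the unmoderated test, and 0 members were called under any alternative. With samples left out in turn its difference ran from -1.27 to -0.38, that of miR-125a from -0.16 to 0.19 and that of miR-125b from -0.32 to 0.17. miR-125a turned to -0.13 against snoRNA, and to -0.12 with no filter and without ischemic sample 3, a setting chosen after seeing the data. miR-125b turned to 0.28 after global mean, 0.30 after global median and 0.27 after quantile normalization, to 0.063 on raw Ct and to 0.093 with the replicate number as a block. The block gave -0.55 for miR-99a and 0.12 for miR-125a. The labels do not say that the numbers pair samples, so they were not taken as pairs. Deviations of same-numbered samples from their group means had correlations of -0.08, -0.30 and -0.11 across miRNAs. With 3 ischemic samples, of which sample 3 stood apart, such deviations depend on each other, so these values cannot decide whether samples were paired. The let-7 median moved to -0.073 after quantile normalization and ran from -0.705 to -0.40 with samples left out. With samples left out, miR-99a minus let-7c ran from -0.42 to 0.18, miR-99a minus miR-125a from -1.16 to -0.41, miR-99a minus miR-125b from -0.96 to -0.36, miR-125b minus let-7c from 0.51 to 0.86 and miR-125a minus miR-125b from 0.02 to 0.20. Over all 103 miRNAs 0 were called with 7 samples against 5S rRNA, 1 after global median or quantile normalization or in the unmoderated test, 8 without ischemic sample 3, and 6 without it after global median normalization. Over the 306 miRNAs without a filter, 0 were called, and 1 without ischemic sample 3. The cause of these turns was not tested. The late Ct of miR-100 and miR-99b limits what their values show.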

Other observations

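The miR-99a and let-7c-1 hairpins lie 656 bases apart, and their mature forms kept nearly the same distance in all non-ischemic samples. The SD of miR-99a minus let-7c was 0.11 log2 units there (n = 4), and 0.895% of the 5253 pairs of tested miRNAs had a smaller one. In ischemic samples the same difference spread with an SD of 0.68 (n = 3), with samples 1 and 2 below and sample 3 above the non-ischemic range. Ischemic samples on both sides of that range, with none inside, were found in 19.5% of all pairs. This pair was singled out after its values were seen. The annotation also holds the gene Mirlet7c-2, outside the chromosome 16 cluster. Its part in the let-7c level was not tested, so that level cannot be assigned to the chromosome 16 gene alone.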
